A study of Rattus norvegicus with 10 samples.

Results

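Calorie restriction (CR) of 30% was set against unrestricted control feeding in rat gastrocnemius, a fast muscle of the calf. The comparison used the 4 arrays, of 10 in the series, whose labels read 30% reduction or no reduction: 1 array of 30% CR and 1 control array after 1 week, and the same pair after 1 month. All rats were male Wistar, 6 weeks old when restriction began, housed singly on a purified powdered diet, and fasted for 16 h before muscle was taken. The 30% CR rats received 30% less food than freely fed rats had been recorded to eat, and control rats received the full recorded amount. RNA from the 5 rats of a group was combined into 1 pool and hybridized to 1 Affymetrix whole-genome rat array, so the spread between rats was not measured. The remaining 6 arrays held 5%, 10% and 20% CR at each duration.

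Muscle that receives less energy turns from glucose to fatty acids, restrains growth signalling through insulin, IGF and growth hormone, and responds to glucocorticoids, which rise when food is short. Muscle also has its own circadian clock. In that loop BMAL1 and CLOCK switch on the Per, Cry and Nr1d1 genes and the output factor Dbp, PER and CRY proteins then silence BMAL1 and CLOCK, and NR1D1 (REV-ERB alpha) represses Bmal1. The hour of feeding is a strong cue for the clocks of peripheral tissues.

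The measurement was the MAS5 signal, a linear intensity per probe set (a group of short probes for one transcript). The trimmed mean signal was 99.6 on both arrays of 1 week and 86.4 on both arrays of 1 month, so ratios were taken within a duration. A log2 ratio of 1 means that the 30% CR array had 2-fold the control signal. The skeletal muscle markers Acta1, Ckm, Tnnt3, Pvalb, Actn3, Myh4 and Mb all lay at or above the 99.9th percentile of mean signal. The actin 3' to 5' ratio, a sign of RNA integrity, was 1.24 on the 30% CR array and 1.70 on the control array at 1 week, and 1.51 and 1.44 at 1 month. The brightest 310 probe sets had a median log2 ratio of 0.11 at 1 week and -0.11 at 1 month. Groups follow the titles and restriction labels, but the free-text description contradicts them for 2 arrays: it calls the 1-week control array restricted and the 1-week 5% CR array control-fed. The study's own comparisons at 1 week ran in the direction of the titles, which does not show which label of an array is right. Results are therefore also given with these 2 arrays exchanged.

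The first question was how many transcripts differed at 30% CR whatever the duration. A linear model across all 10 arrays (limma, with level and duration as terms) gave each probe set 1 fitted change, which equals the mean of its log2 ratios at 1 week and 1 month. Of 15521 probe sets tested, 197 (1.27%) were higher at 30% CR and 164 (1.06%) were lower at an adjusted p below 0.05, 361 (2.33%) in all, and 2195 had an unadjusted p below 0.05. By gene, 131 of 9170 (1.43%) were higher and 109 (1.19%) lower. These shares are the background for the list counts below, and the lists were chosen with earlier results of these data known. All 361 probe sets called had the same sign at both durations, which the fitted mean favours by construction. With the 1-week control and 5% CR arrays exchanged, 9 were higher and 4 lower, and 11 of the 361 were among them. All 361 kept their sign in that fit, and 344 kept it in the 1-week ratio of the 30% CR array to the 5% CR array. Both results reuse the 1-week 30% CR array, and the fit also the 1-month pair, which favours a kept sign by construction. Without the 1-week control array, 98 were higher and 73 lower, and without the 1-week 30% CR array 63 and 62. Leaving out the 1-month control array gave 140 higher and 79 lower, and leaving out the 1-month 30% CR array gave 107 and 104. A variance estimate without the trend on signal gave 34 higher and 27 lower. In these fits an arm with 1 array is assumed to vary as the other groups do.

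A second count used no test and asked for a 2-fold ratio in the same direction at both durations. That held for 57 probe sets higher (0.367%) and 53 lower (0.341%), of which 91 were also called by limma and 22 had at least 1 signal below the mean of 17.8 that the filter required. By gene, 37 (0.403%) were higher and 29 (0.316%) lower. At 1 week alone, 291 probe sets (1.87%) were 2-fold higher and 245 (1.58%) 2-fold lower. At 1 month alone, 201 (1.3%) were higher and 233 (1.5%) lower. Of the 291 higher at 1 week, 204 had the same sign at 1 month and 19.6% reached 2-fold there, and of the 201 higher at 1 month, 155 had the same sign at 1 week and 28.4% reached 2-fold. For lower probe sets the shares reaching 2-fold at the other duration were 21.6% of 245 and 22.7% of 233. Ratios 2-fold in opposite directions occurred in 4 probe sets.

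Across all tested probe sets the ratios of both durations had the same sign in 9118 (58.7%), with a Pearson correlation of 0.31 and a Spearman correlation of 0.27. These pairs of ratios share no array, and probe sets are not independent replicates. Agreement was closer among brighter probe sets: the Pearson correlation was 0.18 in the dimmest, 0.42 in the middle and 0.52 in the brightest of 3 equal bands, each of 5173 or 5174 probe sets. The standard deviation of the ratios was 0.44 at 1 week and 0.41 at 1 month. The plot of both ratios by gene shows the called genes along the diagonal, which selection on the mean of these ratios favours by construction.

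**Figure D1:**
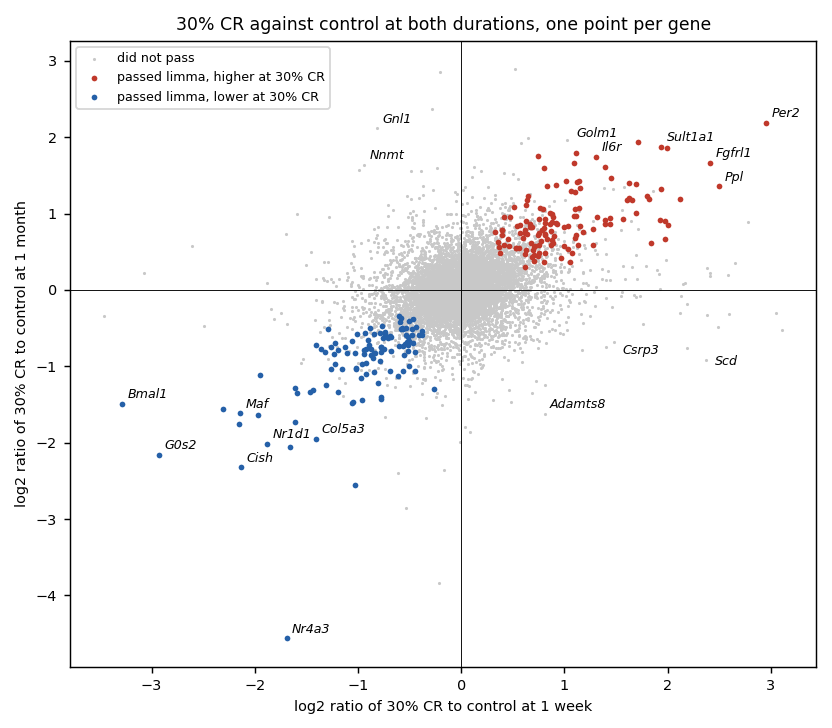
Each point is 1 of 9170 genes, with its log2 ratio of 30% CR to control at 1 week on the horizontal axis and at 1 month on the vertical axis. Red points are the 131 genes higher and blue points the 109 genes lower in limma, grey points did not pass, and named grey points in the upper left and lower right are genes whose ratios opposed each other.

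Clock genes held the largest change among genes that were higher. Per2, a repressor of the loop, had signals of 288 at 1 week and 191 at 1 month on the 30% CR arrays, against 37.1 and 42.0 on the control arrays. Both 30% CR values stood above both control values. Per2 rose 5.95-fold (log2 change 2.57 ± 0.24, SE, limma adjusted p = 0.000446), and its adjusted p stayed at or below 0.00825 whichever array was left out. With the 1-week control and 5% CR arrays exchanged the change was 1.49 (adjusted p = 0.438), since the 1-week 5% CR array read 167. The 20% CR arrays read 291 and 222.

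Dbp and Tef, which act through D-box elements as clock outputs, also rose. The Dbp signal was 328 at 1 week and 109 at 1 month on the 30% CR arrays, against 83.7 and 58.6 on the control arrays, a log2 change of 1.44 ± 0.26 (limma adjusted p = 0.0144). The excess was larger at 1 week, with a ratio of 1.97 against 0.90 at 1 month. Tef changed by 0.80 ± 0.13 (adjusted p = 0.00815), a call lost when its probe sets were averaged. Neither gene passed without the 1-week control, the 1-week 30% CR or the 1-month control array, with adjusted p up to 0.124 for Dbp and 0.12 for Tef.

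Not every target of the loop was higher. Nr1d1, the repressor REV-ERB alpha, had signals of 91.6 and 57.7 on the 30% CR arrays at 1 week and 1 month, against 337.6 and 233 on the control arrays. The groups did not overlap, and the ratios of -1.88 and -2.01 lay close together. Nr1d1 fell by 1.95 ± 0.15 on the log2 scale (limma adjusted p = 0.000357), passed whichever array was left out (adjusted p up to 0.00751), and passed with the 1-week control and 5% CR arrays exchanged (log2 change -2.37, adjusted p = 0.00262). Its level was lower at 20% CR as well, at 138 and 98.7, while the 1-week 5% CR array read 604.

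Bmal1, the activating partner of CLOCK, had signals of 12.5 and 47.5 on the 30% CR arrays at 1 week and 1 month, against 122 and 133 on the control arrays. It fell by 2.39 ± 0.51 (limma adjusted p = 0.0344), with a 1-week signal under the filter mean, and was not called without the 1-week control, the 1-week 30% CR (change -1.52, adjusted p = 0.312) or the 1-month control array. Clock had 200 and 165 at 30% CR against 390 and 323 in control. It fell by 0.97 ± 0.13 (adjusted p = 0.002), without overlap of the groups, and passed whichever array was left out. Averaged over its probe sets, Clock was not called. Cry1, a repressor that acts with PER, fell by 0.66 ± 0.15 (adjusted p = 0.0487), a call lost in 8 of 10 fits with 1 array left out, those without either control array among them (adjusted p up to 0.356).

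Of the 12 measured genes of the PER, CRY and D-box arm 3 rose, 2 fell and 7 did not pass. Of the 4 measured genes of the BMAL1 arm and its opponents 2 fell and 2 did not pass. Over all genes tested 1.43% were higher and 1.19% lower. Per3 had ratios of 1.56 at 1 week and 1.05 at 1 month without passing (adjusted p = 0.11). Nfil3, which competes with Dbp for D-boxes, had ratios of -1.69 and -0.44 (adjusted p = 0.13). The BMAL1 arm had list medians of -1.33 at 1 week and -0.71 at 1 month, beside 0.00 at both durations over all genes tested. Only Nr1d1 of these genes passed with the 2 arrays exchanged.

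Because Per2 rose while Bmal1 and its repressor Nr1d1 fell, the promoters of Per2 and Bmal1 are shown, 250 bases before to 50 bases after the start given by RefSeq in assembly GRCr8. Capitals mark the D-box TTATGTAA in Per2 (chr9:99496944-99497243, minus strand), at position -192 from the start, and the REV-ERB element TAGGTCA in Bmal1 (chr1:176766078-176766377, plus strand), at position -16. Both strands were searched.
Per2: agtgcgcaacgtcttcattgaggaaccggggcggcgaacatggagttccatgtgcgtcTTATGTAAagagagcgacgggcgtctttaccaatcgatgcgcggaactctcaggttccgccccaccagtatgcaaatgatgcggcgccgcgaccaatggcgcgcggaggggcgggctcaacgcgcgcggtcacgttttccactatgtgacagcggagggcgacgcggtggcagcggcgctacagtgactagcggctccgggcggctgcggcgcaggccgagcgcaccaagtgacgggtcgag
Bmal1: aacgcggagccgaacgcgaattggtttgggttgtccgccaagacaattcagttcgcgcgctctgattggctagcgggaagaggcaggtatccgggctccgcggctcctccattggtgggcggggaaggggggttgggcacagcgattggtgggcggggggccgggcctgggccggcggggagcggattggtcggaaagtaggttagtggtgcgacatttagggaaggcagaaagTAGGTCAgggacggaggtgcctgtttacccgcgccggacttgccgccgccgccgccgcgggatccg
The D-box letters occurred in 0.881% and the REV-ERB letters in 2.6% of all 27457 RefSeq promoter windows, and in 0.427% and 1.71% of the 7724 tested genes with a window. Neither promoter held the E-box letters CACGTG, which BMAL1 and CLOCK bind. Those letters occurred in 6.65% of all windows and in 10.02% of tested genes with a window. Other forms of the E-box were not searched. These are matches of letters, not measured binding, and a missing match covers this window alone.

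Enzymes that modify foreign compounds made up the next group. Sult1a1, a sulfotransferase, had signals of 496 and 490 on the 30% CR arrays at 1 week and 1 month, against 129 and 134 on the control arrays. Its ratios of 1.94 and 1.88 were nearly equal, and it rose 3.75-fold (log2 change 1.91 ± 0.16, limma adjusted p = 0.000357). Fmo2, a flavin monooxygenase, had 117 and 119 at 30% CR against 29.5 and 32.7 in control, and rose 3.8-fold (1.92 ± 0.18, adjusted p = 0.000446). The other 2 Fmo2 probe sets rose by 1.67 and 1.64.

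Fmo1 had signals of 105 and 119 on the 30% CR arrays, against 38.5 and 43.1 on the control arrays, and rose by 1.46 ± 0.18 (limma adjusted p = 0.0016). Ephx1, the microsomal epoxide hydrolase, rose by 1.40 ± 0.18, and Gsta1, a glutathione transferase, by 1.10 ± 0.15 (adjusted p = 0.00187 and 0.00261). In this group 30% CR and control signals did not overlap for any of the 5 genes, which their selection by limma on the same arrays favours. Sult1a1, Fmo1, Fmo2 and Ephx1 passed whichever array was left out, but none passed with the 1-week control and 5% CR arrays exchanged (adjusted p = 0.172, 0.174, 0.201 and 0.424). Sult1a1 read 346 and 369 and Fmo2 read 74.4 and 65.3 at 20% CR, below both 30% CR arrays.

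Of the 16 measured xenobiotic enzymes these 5 rose and 11 did not pass, beside 1.43% of all genes higher. The list medians were 0.19 at 1 week and 0.56 at 1 month. Nqo1, a quinone reductase, had ratios of -0.51 and 0.50 without passing. Of 17 antioxidant enzymes 1 rose, Srxn1, which repairs peroxiredoxins, with signals of 41.4 and 51.6 on the 30% CR arrays and 14 and 27 on the control arrays (log2 change 1.25 ± 0.28, limma adjusted p = 0.0432). Srxn1 did not pass in 8 of 10 fits with 1 array left out (adjusted p up to 0.255, without the 1-week control array).

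The remaining genes with the largest increases at both durations were of mixed function. Phlda3, an inhibitor of AKT and a target of p53, had signals of 583 and 617 on the 30% CR arrays against 189 and 235 on the control arrays, and rose 2.85-fold (log2 change 1.51 ± 0.14, limma adjusted p = 0.000446). Cfd, complement factor D, had 146 and 157 at 30% CR against 55.5 and 51.4 in control, and rose 2.83-fold (SE 0.22 on the log2 scale, adjusted p = 0.00385). Il6r, the interleukin-6 receptor, had 57.1 and 118 at 30% CR against 23.1 and 35.2 in control (1.53 ± 0.27, adjusted p = 0.0123).

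Cfd and Il6r also passed with the 1-week control and 5% CR arrays exchanged (adjusted p = 0.0295 and 0.0328), and Phlda3 did not (0.142). Phlda3 passed whichever array was left out. Cfd did not pass without the 1-week 30% CR array (1.42, adjusted p = 0.0589), and Il6r did not without that array, the 1-month control or the 1-month 30% CR array (adjusted p up to 0.117). Cfd was 1 of 7 measured adipocyte markers and the only one to pass, beside Adipoq, the hormone adiponectin, at ratios of 1.39 and 0.66 (adjusted p = 0.23) and Fabp4, a fatty acid carrier, at 0.23 and 0.19. Only 4 of the 7 markers had the same sign at both durations, and the list medians were 0.23 and 0.19.

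Zfp503, a zinc finger repressor, rose by 1.54 ± 0.21 (limma adjusted p = 0.00264) with signals of 525 and 400 on the 30% CR arrays and 162 and 153 on the control arrays. A dimmer Zfp503 probe set had ratios of 1.51 and -0.11 and did not pass. Golm1, a Golgi membrane protein, rose by 1.82 ± 0.27, with control signals of 19.0 and 23.3, and Art5, an ADP-ribosyltransferase, by 1.62 ± 0.25. Fgfrl1, an FGF receptor without a kinase domain, had 61.8 and 39.4 on the 30% CR arrays against 11.6 and 12.4 on the control arrays. Ppl, the junction protein periplakin, had 45.8 and 35.7 at 30% CR against 8.1 and 13.9 in control. Both control signals of Fgfrl1 and of Ppl lay below the filter mean of 17.8, so these genes were tested only through restricted arrays, and their limma calls are not used as support.

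Golm1 did not pass without the 1-week 30% CR (adjusted p = 0.0841) or the 1-month control array, nor did Art5 without the 1-week 30% CR (0.0834) or the 1-week control array. Nckap5l, Epcam, an epithelial adhesion protein, and Slc25a22, a mitochondrial glutamate carrier, had both ratios above 1.3 without passing (limma adjusted p = 0.0539, 0.148 and 0.0664). Control signals of Nckap5l and Slc25a22 were also below the filter mean at both durations. A second Nckap5l probe set had ratios of -0.77 and -0.72.

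**Figure D2:**
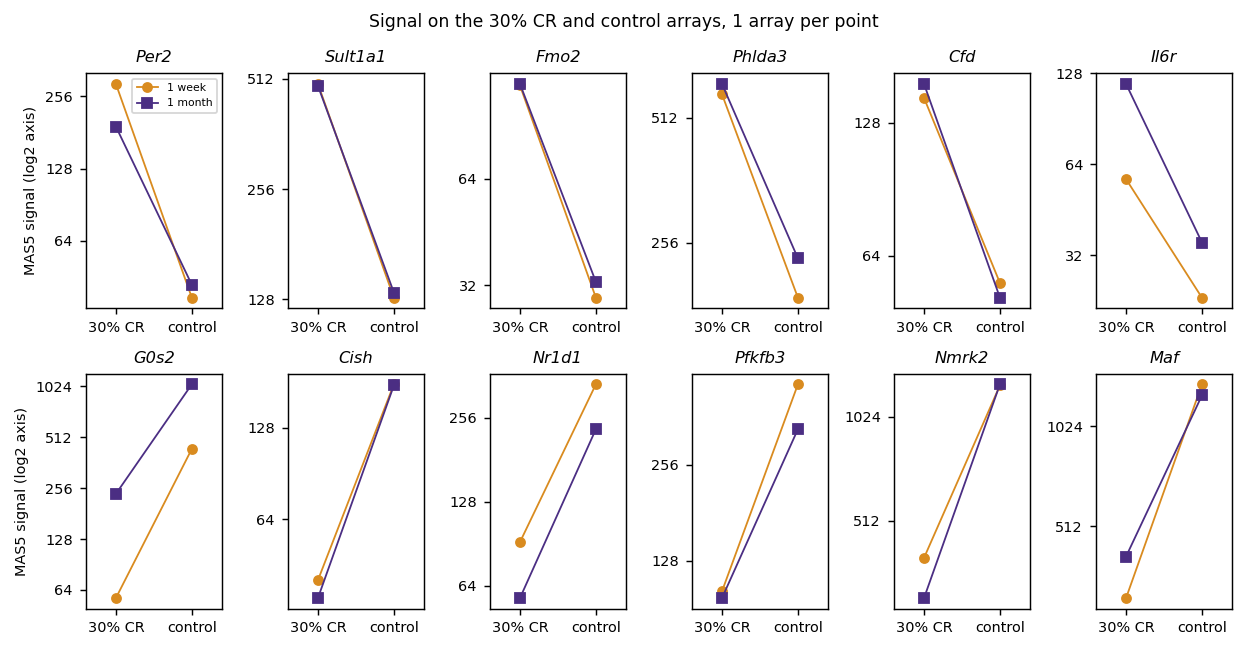
MAS5 signal on a log2 axis for 6 genes higher (top row) and 6 lower (bottom row), with 30% CR left of control, circles for 1 week and squares for 1 month, and 1 array per point. In all 12 panels both 30% CR points lie on one side of both control points, which the choice of genes with large changes favours.

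Genes of fat use changed in both directions. G0s2, an inhibitor of the lipase ATGL, had signals of 57.3 and 237 on the 30% CR arrays at 1 week and 1 month, against 438 and 1055 on the control arrays. Each 30% CR array was below each control array, although levels at 1 month exceeded those at 1 week in both groups. G0s2 fell 5.83-fold (log2 change -2.54 ± 0.48, limma adjusted p = 0.0167), and was not called without the 1-week control, the 1-week 30% CR (-1.80, adjusted p = 0.196) or the 1-month control array.

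Plin4, a coat protein of lipid droplets, had 1394 and 1338 at 30% CR against 827 and 797 in control, and rose by 0.75 ± 0.11 (limma adjusted p = 0.00374). Pnpla2, which encodes ATGL, rose by 0.54 ± 0.12 (adjusted p = 0.0439), but 7 of 10 fits with 1 array left out lost it, with adjusted p up to 0.286. Plin4 did not pass without the 1-week 30% CR array (0.0607). Of the 11 measured lipolysis and lipid droplet genes 2 rose, 1 fell and 8 did not pass, with medians of 0.07 at both durations.

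Dgat2, which makes triglyceride, and Srebf1, a master regulator of lipid synthesis, moved apart. Dgat2 had signals of 459 and 374 on the 30% CR arrays against 130 and 164 on the control arrays, and rose 2.84-fold (SE 0.15 on the log2 scale, limma adjusted p = 0.000554). Srebf1 had 199 and 316 at 30% CR against 550 and 799 in control, and fell by 1.40 ± 0.21 (adjusted p = 0.00479). A second Srebf1 probe set changed by -1.19 (adjusted p = 0.0144). Dgat2 passed whichever array was left out, and Srebf1 did not without the 1-week 30% CR (0.0747) or the 1-month control array. Of 16 triglyceride and fatty acid synthesis genes the other 14 did not pass, and none of 14 cholesterol synthesis genes did, with medians of -0.32 and -0.16 there.

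Of the 11 measured genes of the fasting fuel switch 4 rose, beside 1.43% of all genes higher. Pdk4, the kinase that shuts pyruvate dehydrogenase, had signals of 4635 and 5077 on the 30% CR arrays, against 2702 and 2956 on the control arrays. Its ratios were equal at 0.78, with a log2 change of 0.78 ± 0.10 (limma adjusted p = 0.0021). Angptl4, a PPAR target that inhibits lipoprotein lipase, had 193 and 270 at 30% CR against 90.3 and 85.8 in control (1.37 ± 0.22, adjusted p = 0.00679). Mlycd, which removes malonyl-CoA, rose by 0.65 ± 0.12, and Ppargc1a, the coactivator PGC-1 alpha, by 0.94 ± 0.20 (adjusted p = 0.0149 and 0.0383).

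The change of Ppargc1a was larger at 1 week, with ratios of 1.28 and 0.59. Pdk4 passed whichever array was left out. Angptl4 did not without either control or the 1-month 30% CR array (adjusted p up to 0.0727), Mlycd without the 1-week control, the 1-week 30% CR or the 1-month 30% CR array (up to 0.146), or Ppargc1a without either control or the 1-week 30% CR array (up to 0.34). Of 22 genes of fatty acid uptake and beta-oxidation 1 rose, Cd36, a fatty acid transporter, with 1215 and 1066 at 30% CR against 555 and 710 in control (0.86 ± 0.13, limma adjusted p = 0.00528). Without the 1-week control or 30% CR array Cd36 did not pass (up to 0.0865).

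Of the 13 measured genes that respond to glucocorticoids 6 rose and 7 did not pass, beside 1.43% of all genes higher, with medians of 0.76 at 1 week and 0.63 at 1 month. The 6 calls became 4 without the 1-week control array and 2 without the 1-month control array. Fkbp5, a chaperone of the glucocorticoid receptor, had signals of 469 and 698 on the 30% CR arrays, against 248 and 269 on the control arrays, and rose 2.22-fold (log2 change 1.15 ± 0.14, limma adjusted p = 0.00147). Glul, glutamine synthetase, had 3775 and 3708 at 30% CR against 2086 and 2037 in control (0.86 ± 0.13, adjusted p = 0.00575). All 30% CR values exceeded all control values for both genes, which their selection on the same arrays favours.

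Klf9 and Klf15, transcription factors induced by the receptor, rose by 0.67 ± 0.09 and 0.93 ± 0.19, Sgk1, a kinase, by 0.59 ± 0.14, and Angptl4 was the sixth gene (limma adjusted p = 0.00221, 0.024 and 0.0489 for the first 3). Sgk1 had 1221 and 792 at 30% CR against 699 and 612 in control, and its call was lost in 7 of 10 fits with 1 array left out (adjusted p up to 0.413). Ddit4, an inhibitor of mTORC1, had ratios of 0.79 and 0.98 without passing (adjusted p = 0.17). None of the 6 passed with the 1-week control and 5% CR arrays exchanged, where Fkbp5 and Glul had an adjusted p of 0.0518 each, although the list's median 1-week ratio to the 5% CR array was 0.80. Fkbp5 passed whichever array was left out, and Glul and Klf15 did not without the 1-week 30% CR (0.0981 and 0.235) or the 1-month control array.

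Protein breakdown genes were examined next. Of 13 measured FOXO and atrophy genes 2 rose and 11 did not pass, beside 1.43% of all genes higher. Foxo3, a transcription factor of muscle wasting, had 379 and 396 at 30% CR against 244 and 238 in control (log2 change 0.69 ± 0.11, limma adjusted p = 0.00602). Klf15, the second gene, is also in the previous list. The ubiquitin ligases Fbxo32 and Trim63 had ratios of 0.15 and 0.07 at 1 week and 0.52 and 0.64 at 1 month without passing. Foxo3 did not pass without either 30% CR or the 1-month control array (up to 0.0635).

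Of 16 autophagy and lysosomal genes 2 rose, beside 1.43% of all genes higher. Gabarapl1, an autophagosome protein, rose by 0.65 ± 0.13 and Ctsl, the protease cathepsin L, by 0.69 ± 0.13 (limma adjusted p = 0.0257 and 0.0165). Ctsl had 1127 and 1332 at 30% CR against 847 and 685 in control. Gabarapl1 did not pass without any 1 of the 4 arrays (up to 0.254), and Ctsl did not without either 1-month array (up to 0.164). None of 23 proteasome subunits passed, with medians of 0.05 and 0.14.

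Pik3ip1, a membrane inhibitor of PI3 kinase, was the strongest of the brakes on growth signalling. Its signals were 465 and 472 on the 30% CR arrays, against 151 and 205 on the control arrays, a log2 change of 1.41 ± 0.15 (limma adjusted p = 0.000907). Eif4ebp1, which blocks translation initiation when mTORC1 is idle, had 726 and 769 at 30% CR against 480 and 481 in control (0.64 ± 0.09, adjusted p = 0.00474). Both passed whichever array was left out, and the other 9 measured genes of this list did not pass.

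Cish, a feedback inhibitor that STAT5 induces after growth hormone, had signals of 40.4 and 35.3 on the 30% CR arrays at 1 week and 1 month, against 178 and 176 on the control arrays. The groups were far apart and each nearly constant over time. Cish fell 4.68-fold (log2 change -2.23 ± 0.37, limma adjusted p = 0.00815), and its second probe set fell by 2.25 (adjusted p = 0.0102). The call was lost without the 1-week control (-1.87, adjusted p = 0.111) or the 1-month 30% CR array, and with the 1-week control and 5% CR arrays exchanged (-0.88, adjusted p = 0.717), since the 1-week 5% CR array read 27.6.

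The other 6 measured genes of growth hormone and STAT5 feedback did not pass. Socs2, a second such inhibitor, had ratios of -0.58 and -0.53, and Igf1, the growth factor that growth hormone induces, -0.77 and -0.55. The Cish promoter is shown because Cish had the largest change of its list (chr8:116850719-116851018, GRCr8, plus strand, RefSeq). Capitals mark 4 matches to the STAT element TTCNNNGAA, at positions -241, -230, -136 and -119 from the start.
Cish: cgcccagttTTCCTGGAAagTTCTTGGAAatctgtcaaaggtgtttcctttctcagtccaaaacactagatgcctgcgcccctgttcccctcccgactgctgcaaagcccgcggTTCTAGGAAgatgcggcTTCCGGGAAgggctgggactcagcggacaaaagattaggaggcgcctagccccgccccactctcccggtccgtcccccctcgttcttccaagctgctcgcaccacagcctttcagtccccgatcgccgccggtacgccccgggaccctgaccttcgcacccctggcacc
At least 1 such match was present in 8.68% of all RefSeq windows and in 6.58% of tested genes with a window. G0s2 was the only other gene among the 30 with the largest changes whose window held one.

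Of 17 measured IGF and insulin signalling genes 3 fell and none rose, beside 1.19% of all genes lower. Igfbp5, an IGF binding protein, had signals of 614 and 648 on the 30% CR arrays, against 1503 and 922 on the control arrays (log2 change -0.90 ± 0.16, limma adjusted p = 0.0141). Irs1, the insulin receptor adaptor, had 111 and 65.9 at 30% CR against 224 and 135 in control (-1.02 ± 0.18, adjusted p = 0.0123). Grb10, an inhibitor of the insulin receptor, fell by 0.65 ± 0.11 (adjusted p = 0.00767), a call lost when its probe sets were averaged.

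Irs1 was about equally lower at both durations, and Igfbp5 more so at 1 week, with ratios of -1.29 and -0.51. Igfbp5 did not pass without either 1-week array (up to 0.142), Irs1 without the 1-week control or 1-month 30% CR array (up to 0.139), or Grb10 without the 1-week 30% CR or 1-month control array (up to 0.0924).

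Pfkfb3, which makes the main activator of phosphofructokinase, had signals of 103 and 97.9 on the 30% CR arrays, against 458 and 331 on the control arrays. It fell 3.88-fold (log2 change -1.96 ± 0.26, limma adjusted p = 0.00217), its second probe set changed by -1.59, and it passed whichever array was left out. Pfkfb1, a related enzyme, had 653 and 645 at 30% CR against 424 and 449 in control and rose by 0.57 ± 0.11 (adjusted p = 0.0198). Slc2a4, the insulin-responsive glucose transporter GLUT4, rose by 0.46 ± 0.10 (adjusted p = 0.0458), a call lost in 9 of 10 fits with 1 array left out (up to 0.328). Pfkfb1 did not pass without any 1 of the 4 arrays (up to 0.202). The other 14 of 17 measured glycolysis genes did not pass, with medians of 0.13 and -0.17.

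Nmrk2, the muscle kinase of nicotinamide riboside in NAD synthesis, had 399 and 305 on the 30% CR arrays against 1264 and 1273 on the control arrays. It fell by 1.86 ± 0.21 (limma adjusted p = 0.00101) and passed whichever array was left out. The other 8 measured NAD genes did not pass. Among 8 polyamine genes Azin1, which protects ornithine decarboxylase, fell by 0.84 ± 0.10, and Sat1, which acetylates polyamines for breakdown, rose by 0.69 ± 0.14 (adjusted p = 0.0017 and 0.0301). Azin1 passed whichever array was left out, and Sat1 was lost in 5 of 10 such fits (up to 0.24).

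Nr4a3, an orphan nuclear receptor induced by exercise and adrenergic signals, had signals of 19.7 and 5.7 on the 30% CR arrays, against 63.6 and 134 on the control arrays. The 1-month value on the 30% CR array was below the filter mean, and the ratio was -1.69 at 1 week and -4.56 at 1 month. Nr4a3 fell by 3.12 ± 0.62 (limma adjusted p = 0.0221) and did not pass without either 1-month array (-2.41 and adjusted p = 0.217 without the control). Jun, an immediate-early gene, had 1011 and 894 at 30% CR against 507 and 601 in control and rose by 0.79 ± 0.14 (adjusted p = 0.0146). It did not pass without either control or the 1-week 30% CR array (up to 0.186), and the other 13 genes of that list did not pass.

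Among the other large decreases Maf, a bZIP transcription factor, had 311 and 415 on the 30% CR arrays, against 1374 and 1272 on the control arrays, and fell by 1.88 ± 0.21 (limma adjusted p = 0.00101). Its 2 other probe sets changed by -1.46 each. Slc41a3, a magnesium transporter, had 187 and 145 at 30% CR against 570 and 482 in control and fell by 1.67 ± 0.16 (adjusted p = 0.000446). Both genes passed whichever array was left out. Dyrk2, a protein kinase, had 217 and 260 at 30% CR against 654 and 661 in control (-1.47 ± 0.27, adjusted p = 0.0157), and its 3 other probe sets changed by -1.32 to -1.60.

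Wsb1, an adaptor of a ubiquitin ligase, Col5a3, a collagen chain, and Poteml2 fell by 1.80 ± 0.41, 1.68 ± 0.38 and 1.37 ± 0.25 (limma adjusted p = 0.0451, 0.044 and 0.0136). Wsb1 was lost in 5, Col5a3 in 7 and Poteml2 in 4 of 10 fits with 1 array left out (up to 0.369, 0.323 and 0.131), and Dyrk2 without the 1-week 30% CR (0.189) or the 1-month control array.

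Of 5 measured alpha-arrestin genes 2 rose, Arrdc2 and Arrdc3, adaptors that direct receptors and transporters to breakdown. The other 3, Arrdc1, Arrdc4 and Txnip, did not pass and had negative ratios at both durations. The list medians were -0.10 at 1 week and -0.08 at 1 month. Arrdc3 had 788 and 906 on the 30% CR arrays against 357 and 430 on the control arrays (log2 change 1.11 ± 0.13, limma adjusted p = 0.00101). Arrdc2 had 761 and 962 at 30% CR against 352 and 584 in control (0.92 ± 0.14, adjusted p = 0.00525). Both passed with the 1-week control and 5% CR arrays exchanged (adjusted p = 0.0161 and 0.0254), Arrdc3 whichever array was left out, and Arrdc2 not without the 1-week 30% CR array (0.66, adjusted p = 0.0607). In all, 8 genes passed under either reading of those labels: these 2, Nr1d1, Cfd, Il6r, Cebpb, a transcription factor (0.80 ± 0.12), Kdr, a receptor for VEGF (-1.09 ± 0.16), and Sobp (-1.06 ± 0.16). Cebpb did not pass without the 1-month 30% CR array (0.65). Sobp did not pass without the 1-week 30% CR array or without the 1-month control array (-0.96 in the latter fit). Without the variance trend, Arrdc2, Cfd, Il6r and Kdr were not called.

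Stress lists each held 1 gene that rose, or none. Herpud1, of endoplasmic reticulum degradation, had 1061 and 1276 on the 30% CR arrays against 305 and 544 on the control arrays (log2 change 1.51 ± 0.17, limma adjusted p = 0.00101), and passed whichever array was left out. The other 16 measured endoplasmic reticulum genes did not pass, with medians of -0.12 and -0.04. Chac1, a glutathione-degrading enzyme and target of ATF4, had 1171 and 1149 at 30% CR against 638 and 623 in control (0.88 ± 0.18, adjusted p = 0.0286), lost without any 1 of the 4 arrays (up to 0.238), and the other 8 ATF4 genes did not pass. Of 12 p53 targets Phlda3 alone passed, and none of 19 cytosolic heat shock proteins did.

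Of 15 vessel growth genes 3 fell, beside 1.19% of all genes lower. Apln, the peptide apelin, had 23.0 and 12.3 on the 30% CR arrays against 114 and 36.2 on the control arrays (log2 change -1.93 ± 0.27, limma adjusted p = 0.00289), and a dimmer Apln probe set had ratios of -0.59 and -0.80 without passing. Tmem100, an endothelial membrane protein, had 101 and 112 at 30% CR against 309 and 274 in control (-1.45 ± 0.14, adjusted p = 0.000446). Kdr had 116 and 63.5 at 30% CR against 198 and 167 in control (adjusted p = 0.00445).

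Tmem100 and Kdr passed whichever array was left out, and Apln did not without the 1-week control array (-1.74, adjusted p = 0.0532). The list medians were -0.25 at 1 week and 0.00 at 1 month. Of 10 endothelial markers Kdr alone passed, and their medians were -0.07 and -0.19. In bulk muscle, fewer cells of a type and less RNA per cell cannot be told apart.

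Cytoskeletal genes Actg1, gamma actin, and Tpm4, a tropomyosin of non-muscle cells, fell by 0.74 ± 0.14 and 0.66 ± 0.13, and Vim, an intermediate filament, rose by 0.46 ± 0.09 (limma adjusted p = 0.0165, 0.0211 and 0.0184). The other 12 of 15 measured actin, tubulin and regulator genes did not pass, beside 1.43% of all genes higher and 1.19% lower. Medians of this list were -0.06 at 1 week and -0.30 at 1 month. Actg1 had 1399 and 1054 at 30% CR against 2247 and 1840 in control. Each of these 3 calls was lost without the 1-week 30% CR or the 1-month control array, and those of Tpm4 and Vim also without the 1-month 30% CR array (up to 0.197, 0.19 and 0.148). Fhl3, a LIM protein of muscle, had 3295 and 3598 at 30% CR against 1610 and 2022 in control, rose by 0.93 ± 0.10 (adjusted p = 0.000908) and passed whichever array was left out. Fhl3 belonged to a list of 12 measured stretch and sarcomere stress genes, in which Nmrk2 fell and the other 10 did not pass. Of 20 collagen and matrix genes 1 fell, Col4a1, by 0.43 ± 0.10 (adjusted p = 0.0439), a call lost in each of 10 fits with 1 array left out.

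Markers of other cell types were mostly below the threshold. Of 14 macrophage markers 3 rose, beside 1.43% of all genes higher. Lyve1, a receptor of resident macrophages and lymphatic vessels, had 271 and 351 at 30% CR against 135 and 131 in control (log2 change 1.22 ± 0.15, limma adjusted p = 0.00147). C1qc, a complement subunit, rose by 1.25 ± 0.26 (adjusted p = 0.0257), and Cd163, a scavenger receptor, by 1.43 ± 0.31 (adjusted p = 0.0367). The list median was 0.14 at 1 week and 0.79 at 1 month. Ptprc and Cd68, which define leukocytes and macrophages, had ratios of -0.58 and 0.13 at 1 week and 0.26 and 0.01 at 1 month, and no macrophage marker was at 0. Lyve1 passed whichever array was left out, C1qc not without either 1-month array (up to 0.219), and Cd163 was lost in 5 of 10 such fits (up to 0.276).

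Of 11 fibroblast markers 3 rose, beside 1.43% of all genes higher. Mfap5, a microfibril protein, rose by 0.72 ± 0.13, Clec3b, tetranectin, by 0.70 ± 0.14 and Scara5, a ferritin receptor, by 0.81 ± 0.14 (limma adjusted p = 0.0144, 0.0213 and 0.0093). The Clec3b call was lost when its probe sets were averaged. Dcn, the abundant matrix protein decorin, had 3461 and 3225 at 30% CR against 2862 and 2503 in control without passing (adjusted p = 0.094). All 11 had the same sign at both durations, with medians of 0.35 and 0.37. Without single arrays these calls reached adjusted p of 0.133, 0.164 and 0.0834. None of 8 smooth muscle and pericyte markers, 4 Schwann cell and nerve markers or 2 blood cell markers passed, with nerve medians of 0.46 and 0.59. The part of these cells in the changes above was not tested.

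**Figure D3:**
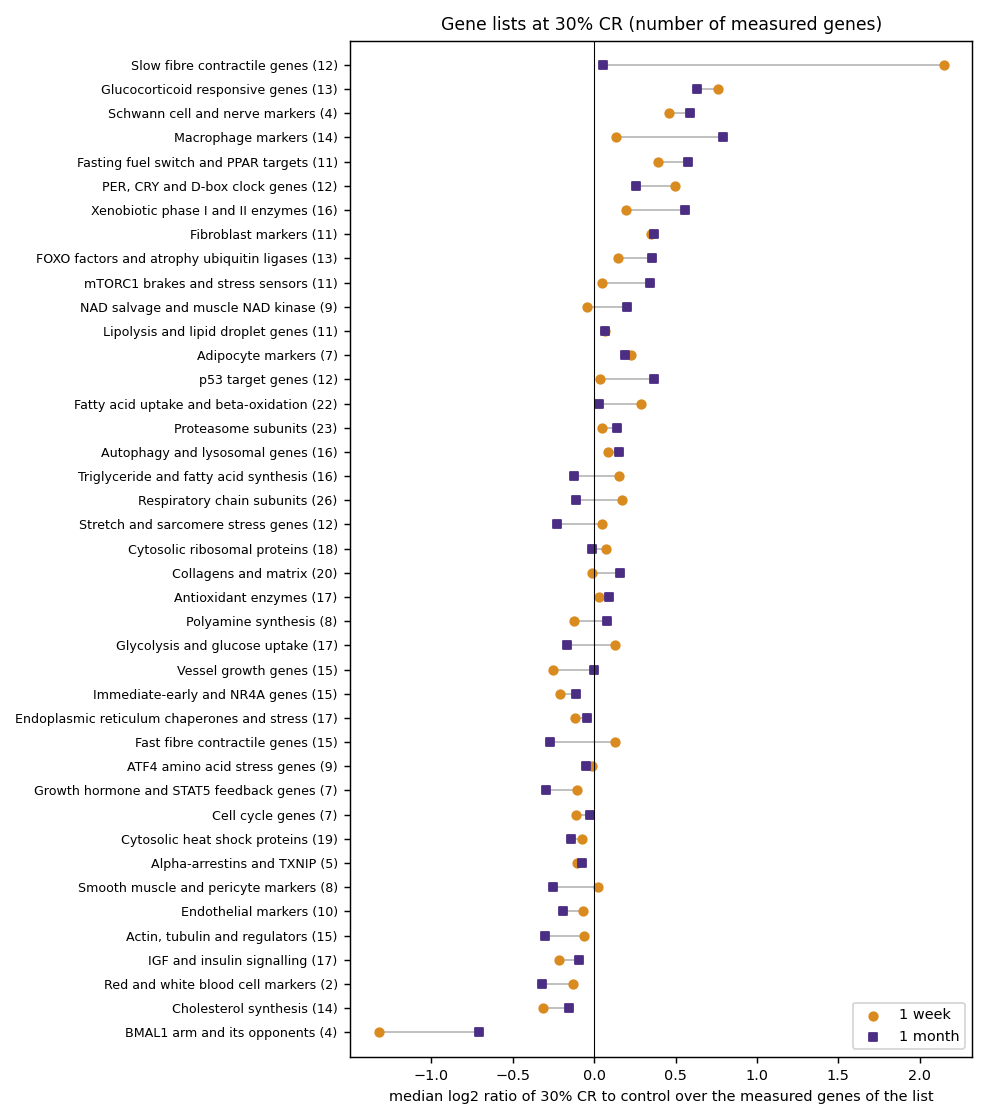
Median log2 ratio of 30% CR to control over the measured genes of each of 41 lists, circles for 1 week and squares for 1 month, with the number of measured genes in parentheses. Slow fibre genes have medians of 2.15 at 1 week and 0.05 at 1 month, the widest gap, and the BMAL1 arm lies lowest at both durations.

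Slow fibre genes had higher ratios at 1 week than at 1 month, a difference that was not tested. Myh7, the slow myosin heavy chain, had a signal of 2916 on the 30% CR array against 464 on the control array at 1 week, and 1814 against 1423 at 1 month. The 1-week control array alone was low, below the 1-month control and both 30% CR arrays. Tnnc1, slow troponin C, had 1609 at 30% CR against 308 in control at 1 week and 1221 against 1001 at 1 month. Csrp3, a stretch-sensing LIM protein, had 2602 against 570 at 1 week and 739 against 1253 at 1 month.

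None of the 12 measured slow fibre genes passed the model over both durations (adjusted p = 0.0987 for Myh7 and 0.107 for Tnnc1), and the list medians were 2.15 at 1 week and 0.05 at 1 month. Set against the 1-week 5% CR array in place of the control, the 1-week median was 0.31. Without the 1-month control array 10 of the 12 passed, and without the 1-week control array none did. Tpm3, an exception, had ratios of -0.09 and -0.15. At 1 week the 30% CR array also had 6477 for Myh2, a fast oxidative myosin, against 3371 in control, and 4402 against 5365 at 1 month.

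All 15 fast fibre genes had opposite signs at the 2 durations, with medians of 0.13 at 1 week and -0.27 at 1 month, and none passed. Myh4, the main fast myosin here, read 9320 at 30% CR against 9148 in control at 1 week and 8116 against 9448 at 1 month. The brightest probe sets shifted in the same sense between durations, as given above, and the part of that shift was not tested. Other lists gave no calls: none of 26 respiratory chain subunits (medians 0.17 and -0.11), 18 ribosomal proteins (0.07 and -0.02) or 7 cell cycle genes (-0.11 and -0.03) passed.

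**Figure D4:**
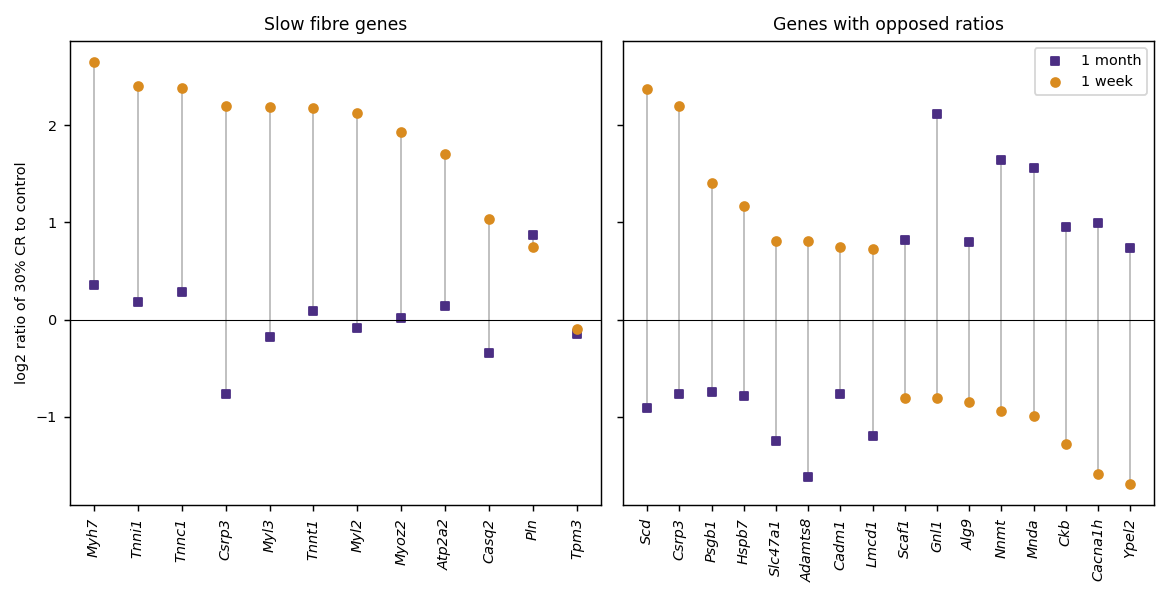
Log2 ratio of 30% CR to control for the 12 slow fibre genes (left) and the 16 genes with the largest opposed ratios (right), squares for 1 month and circles for 1 week, with 1 ratio of 2 arrays per point. Of the slow fibre genes, 10 lie above 1 at 1 week, and Pln is the only one near that level at 1 month.

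Whether 30% CR went beyond 20% CR was asked as a second contrast of the same model, in which the control arrays entered the estimate of spread but not the difference. No probe set passed (0%), 569 had an unadjusted p below 0.05, and the smallest adjusted p was 0.407. Without the 1-week 30% CR array 1 probe set passed. Dach1, a transcriptional corepressor, had 45.1 and 24.6 on the 30% CR arrays against 96.0 and 47.7 on the 20% CR arrays (log2 difference -1.02 ± 0.18, adjusted p = 0.711). Against control Dach1 fell by 1.02 ± 0.18 (limma adjusted p = 0.0137), a call lost without any 1 of the 4 arrays of that comparison (up to 0.106).

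Ucp3, the mitochondrial uncoupling protein of muscle, had 854 and 1496 at 30% CR against 488 and 713 at 20% CR without passing (0.94 ± 0.26, adjusted p = 0.999). Its ratio to control was 0.06 at 1 week and 1.13 at 1 month. None of the other genes with the largest differences in both pairs passed. Sapcd1, Nmur1, Rsbn1, Nrf1 and Fstl3 were higher at 30% CR by 0.88 to 2.10. Mt3, Wnt1, Inf2, Fmod and Ankrd1 were lower by log2 differences of -1.06 to -1.69. Both 20% CR signals of Sapcd1, Nmur1 and Fstl3 lay below the filter mean of 17.8. So did both 30% CR signals of Wnt1 and the 1-month 30% CR signals of Mt3 and Inf2. Against control, the fitted changes of Sapcd1, Nrf1 and Fstl3 were -0.07, -0.06 and 0.03. Fmod, the matrix protein fibromodulin, had 171 and 180 at 30% CR against 388 and 345 at 20% CR, with control arrays at 195 and 140. A second Ankrd1 probe set had ratios to control of 0.19 and 0.26.

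The 30% CR array was the highest of the 5 arrays at both durations for 797 probe sets (5.13%) and the lowest for 951 (6.13%). Among probe sets called against control the counts were 119 of 197 higher and 97 of 164 lower, chosen on the same arrays and so not a test. The 30 genes with the largest changes were also chosen by their 30% CR ratios, so their count is not a test either. Of these 30 genes, 17 lay farther from control at 30% CR than at 20% CR at both durations. They were Sult1a1, Fmo2, Golm1, Fmo1, Cfd, Nckap5l, Epcam, Slc25a22, Art5 and Il6r among the higher genes, and Nr1d1, Pfkfb3, Nmrk2, Maf, Apln, Col5a3 and Poteml2 among the lower. In the other 13 the 20% CR array was as far from control or farther at 1 duration or both, at both for Per2, Zfp503, G0s2 and Bmal1 and at 1 for Fgfrl1, Phlda3, Ppl, Cish, Nr4a3, Wsb1, Slc41a3, Dyrk2 and Srebf1.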

How the data were processed

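The authors pooled gastrocnemius RNA of the 5 rats of each group, hybridized 1 array per group and computed MAS5 signals. The deposited values are linear signal intensities, scaled array by array, with no detection or change calls. Further upstream versions are not given in the sources used here. A floor of 0.1 was applied before taking log2. Control probe sets were dropped, and 15521 of 31099 probe sets at or above the 50th percentile of mean log2 signal (a mean signal of 17.8) were tested. Symbols came from the platform annotation, updated through a RefSeq table: 20832 probe sets carried 1 gene, 436 several and 9831 none, and 20764 matched. The brightest probe set stood for a gene.

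limma 3.58.1 in R 4.3.3 (lmFit, eBayes with trend) fitted level as a factor plus duration to all 10 arrays, with 4 residual degrees of freedom and Benjamini-Hochberg adjustment at 0.05 over all tested probe sets. The authors' MAS5 change calls need probe-level data and were not used. No array is replicated within a group, so p-values rest on departures from additivity of level and duration, and the number of arrays limits the precision. Scripts were tested on simulated data. Named genes were the 15 largest in each direction with the same sign at both durations (by the smaller ratio), 6 in each direction for 30% against 20% CR, 8 of each sense with opposed ratios, and up to 4 passing genes per list, or 2 where none passed. Other genes were named after their values were seen. The members and the 41 lists were chosen with earlier results of these data known. Alternatives were other normalizations, filters, log offsets, variance models and minimum ratios, the 4 arrays alone, averaging the probe sets of each gene, the exchange of 2 arrays, and leaving out each array.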

Additional observations from a re-analysis of the deposited data

Results flagged for a closer look

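Among genes whose 30% CR array lay on one side of control at 1 week and on the other side at 1 month, the 8 in each sense that ranked highest by the smaller of their ratios, 16 in all, are given here. The difference between durations was not tested, since each rests on 1 array per group, and none of the 16 passed the model over both durations. In 8 genes the ratio was higher at 1 week, so that the ratio at 1 month minus that at 1 week was negative. These were Scd, a fatty acid desaturase (-3.28), Csrp3, a stretch-sensing muscle protein (-2.95), Adamts8, a matrix protease (-2.43), Psgb1 (-2.14), Slc47a1, a cation exporter (-2.06), Hspb7, a small heat shock protein (-1.96), Lmcd1, a LIM protein of muscle (-1.92), and Cadm1, an adhesion protein (-1.51). Scd had signals of 66.1 at 30% CR against 12.8 in control at 1 week, and 9.5 against 17.9 at 1 month. Lmcd1 had 470 at 30% CR against 285 in control at 1 week, and 191 against 436 at 1 month. Hspb7, at 1428 against 635 and at 645 against 1115, was lowest on the 1-week control array, as Csrp3 was.

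In the other 8 genes the ratio was higher at 1 month. These were Gnl1, a GTP-binding protein (2.93), Cacna1h, a calcium channel (2.58), Nnmt, nicotinamide methyltransferase (2.58), Mnda, a myeloid nuclear antigen (2.56), Ypel2 (2.43), Ckb, brain creatine kinase (2.23), Alg9, a mannosyltransferase (1.64), and Scaf1 (1.63). All of their signals on the 4 arrays were between 5.9 and 70.2. Mnda had 10.4 at 30% CR against 20.7 in control at 1 week, and 65.9 against 22.3 at 1 month.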

How the results depend on the processing

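The labels give no replicate numbers, and the pairing of arrays by duration is a term of the model. In the 4 arrays alone, with duration as a block, 180 were higher and 165 lower. The calls of 197 higher and 164 lower stayed within 1.5 times of these counts under quantile normalization, median centring, no filter, the 70th percentile filter, log2 of signal plus 32 and the 4 arrays alone. They moved to 34 and 27 without the variance trend and to 9 and 4 with the 1-week control and 5% CR arrays exchanged, and spanned 63 to 201 and 62 to 169 with 1 array left out. Of the 27 genes with the largest changes that passed, 9 passed without the trend, 3 with the exchange, and 14, 18, 17 and 21 without the 1-week 30% CR, 1-week control, 1-month control and 1-month 30% CR array. The count for 30% against 20% CR was 0 to 1 with 1 array left out.

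Counts of 2-fold ratios at both durations, 57 higher and 53 lower, were 939 and 1042 without the filter, 35 and 31 with the 70th percentile filter, 20 and 23 with signal plus 32, and 25 and 31 with the exchange. A minimum ratio of 0.58 gave 286 and 239, and one of 1.5 gave 8 and 14. The Pearson correlation between durations was 0.030 without the filter and 0.48 with the 70th percentile filter, and the Spearman correlation without the filter was 0.083. Low signals limit these ratios. Genes that changed sign had not passed. With 1 array left out their log2 changes spanned -0.30 to 0.96 for Myh2, -0.36 to 0.13 for Tnnt3, -0.11 to 0.51 for Ndufb8, -0.037 to 0.29 for Ndufv1, -0.25 to 0.046 for Rpl6, -1.12 to 0.096 for Mcm6, -0.78 to 0.045 for Ccnd1, -0.90 to 0.012 for Alas2 and -0.010 to 0.00015 for Hbb. Myh2 was at -0.16 with the exchange, Hbb at 0.013 with median centring, and Rpl3 at -0.40 as the mean of its probe sets. The cause was not tested.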
